A study of Mus musculus with 12 samples.

Results

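The genes described here are 40 cell cycle and DNA replication genes, chosen by name and read from a table of 55487 gene identifiers in 12 mouse tumour libraries. They were sorted by textbook role into 7 regulators of the G1/S transition, 13 genes of DNA replication and nucleotide supply, and 20 genes of G2 and mitosis, and all 40 had enough counts to be among the 16974 genes tested. The tumours grew from the mouse head and neck squamous carcinoma line Sq-1979, placed subcutaneously in Matrigel in male C3H/HeN mice aged 6 weeks at injection. Treatment began on day 20, in 4 groups of 3 libraries each. One group received vehicle, one an antibody against PD1 (a checkpoint receptor on T cells), one regorafenib at 5 mg/kg per day (an oral inhibitor of several kinases, VEGF receptors among them), and one both agents, called the combination here. All 4 groups share the cell line, the strain, the sex and the site. Whether each sample of a group is from its own mouse is not in the labels, so p-values measure only the spread between these samples, which may be technical. The comparisons ask what each agent did to these genes, alone and with the other.

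The cell cycle runs on cyclins, which bind and activate cyclin-dependent kinases. In G1, cyclin D and cyclin E kinases release E2F factors, which switch on the genes that load the MCM helicase on DNA and build nucleotides. Later, cyclin A and cyclin B with CDK1 drive mitosis, under the brake of the kinase WEE1 and with genes switched on by FOXM1 and B-MYB. In bulk tumour RNA these genes are often read as a measure of how many cells divide, and human squamous tumours of the head and neck frequently carry extra copies of the cyclin D1 gene.

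The libraries held 22591835 to 28209036 counts, and the lowest count of any member in any library was 63. Levels are given in CPM, in which each count is scaled to the total of its library, after adjustment between libraries by the TMM method. The labelled squamous identity was borne out in each library: all 10 keratinocyte markers (Krt5, Krt14 and Trp63 among them) were tested, with summed levels of 11600 to 17730 CPM. Markers of other cells varied more. The summed level of 10 fibroblast markers (Col1a1 and Dcn among them) was 24460 to 32660 CPM with vehicle, 6541 to 32650 with anti-PD1, 5689 to 30270 with regorafenib and 4890 to 12890 with the combination. Summed T cell markers were 86.6 to 106 CPM with vehicle and 74.4 to 235 CPM over the 9 treated libraries. The library regorafenib 1 stood apart, with skeletal muscle markers at 17.9 CPM where the other libraries had at least 122 CPM, and with the highest level of 35 of the 40 members. In bulk RNA, fewer dividing cells and less RNA of these genes per cell cannot be told apart, and the part of the other cell types in the results below was not tested.

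With vehicle, the members spanned a wide range of levels per kilobase of exon. Cyclin D1 was at the top, with Ccnd1 at 64.1 ± 9.11 CPM per kb (SD, n = 3), and Cdc20, the activator of the anaphase-promoting complex, was at 62.7 ± 11.6 CPM per kb, a difference within their spread. Pcna, the sliding clamp of the DNA polymerases, followed at 48.8 ± 2.30, and Mcm6, a subunit of the replicative helicase, at 44.9 ± 2.83 CPM per kb. Lowest were Cdc6, which loads that helicase, at 2.698 ± 0.25 and Ccne1, cyclin E1, at 2.68 ± 0.49 CPM per kb, again within their spread. The 6 helicase subunits ran from 17.6 ± 1.37 CPM per kb for Mcm2 to that of Mcm6. Exon length counts all annotated exons of a gene together, 6956 bases for Mcm2 and 3589 for Mcm4, and the order of genes depends on it. Before that division, Mcm2 was at 122.2 CPM, Mcm3 at 118.6, Mcm4 at 110.5, Mcm5 at 164.7, Mcm6 at 209.3 and Mcm7 at 122.8. Among the mitotic kinases, Plk1 stood at 26.7 ± 4.30, Aurkb at 20.1 ± 0.73, Wee1 at 19.8 ± 0.71, Cdk1 at 18.1 ± 2.80, Aurka at 13.7 ± 1.15 and Bub1 at 8.64 ± 1.09 CPM per kb.

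The promoters of the members were searched for the letters of 3 known motifs, in windows of 250 bases before to 50 bases after the RefSeq gene start (mouse build GRCm38.p6). A window was present for 31 of the 40 members. Those of E2f1, Mcm7 and Cdc6 lie wholly inside the genes as annotated by GENCODE, so for them the sequence before the annotated gene was not searched. The E2F-type letters (TTTCCCGC, TTTCGCGC, TTTGCCGC or TTTGGCGC, on either strand) were found in 6 of 11 replication windows, 2 of 5 G1/S windows and 1 of 15 mitosis windows, against 2.26% of 32851 windows of that length over the genome. The letters of the cell cycle homology region, or CHR (TTTGAA or TTCGAA, on either strand), were found in 11 of 15 mitosis windows, 2 of 11 replication windows and 1 of 5 G1/S windows, against 19.2% of all windows. All 11 of those mitosis windows also held the CCAAT box (CCAAT on either strand, with overlapping matches of any motif counted), a pairing present in 7.52% of all windows. A match of letters is a description of sequence only. The 5 windows below show both arrangements, in capitals for E2F-type and CHR letters and lower case for the rest: Cdk2, the kinase partner of cyclin E, and Mcm6 with E2F-type letters, Top2a (topoisomerase II alpha, which untangles chromosomes) and Cdc20 with CHR letters, and Cdk1 with both.
Cdk2 promoter, chr10:128705002-128705301, minus strand: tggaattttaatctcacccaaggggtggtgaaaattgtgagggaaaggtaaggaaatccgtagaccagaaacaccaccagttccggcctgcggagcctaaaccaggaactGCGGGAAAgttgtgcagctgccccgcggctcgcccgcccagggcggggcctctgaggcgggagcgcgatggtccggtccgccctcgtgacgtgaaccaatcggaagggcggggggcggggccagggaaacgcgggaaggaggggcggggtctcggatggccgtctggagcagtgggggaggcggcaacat
Mcm6 promoter, chr1:128359656-128359955, minus strand: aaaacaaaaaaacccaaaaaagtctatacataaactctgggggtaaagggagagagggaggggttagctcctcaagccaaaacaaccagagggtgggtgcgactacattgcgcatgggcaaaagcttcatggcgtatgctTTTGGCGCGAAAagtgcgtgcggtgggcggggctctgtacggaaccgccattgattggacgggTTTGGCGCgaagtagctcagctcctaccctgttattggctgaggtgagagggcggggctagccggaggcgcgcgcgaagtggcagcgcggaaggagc
Top2a promoter, chr11:99024140-99024439, minus strand: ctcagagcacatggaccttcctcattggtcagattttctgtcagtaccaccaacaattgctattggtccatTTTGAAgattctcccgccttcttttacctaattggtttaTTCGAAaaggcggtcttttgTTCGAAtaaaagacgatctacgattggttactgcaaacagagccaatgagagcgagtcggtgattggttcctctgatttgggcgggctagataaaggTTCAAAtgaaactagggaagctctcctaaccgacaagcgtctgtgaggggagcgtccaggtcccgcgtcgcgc
Cdc20 promoter, chr4:118437294-118437593, minus strand: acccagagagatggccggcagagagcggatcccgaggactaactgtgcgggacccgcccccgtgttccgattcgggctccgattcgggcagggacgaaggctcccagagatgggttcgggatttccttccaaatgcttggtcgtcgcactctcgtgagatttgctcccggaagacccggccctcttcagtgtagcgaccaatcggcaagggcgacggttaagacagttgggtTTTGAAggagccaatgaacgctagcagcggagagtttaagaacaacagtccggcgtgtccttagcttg
Cdk1 promoter, chr10:69352863-69353162, minus strand: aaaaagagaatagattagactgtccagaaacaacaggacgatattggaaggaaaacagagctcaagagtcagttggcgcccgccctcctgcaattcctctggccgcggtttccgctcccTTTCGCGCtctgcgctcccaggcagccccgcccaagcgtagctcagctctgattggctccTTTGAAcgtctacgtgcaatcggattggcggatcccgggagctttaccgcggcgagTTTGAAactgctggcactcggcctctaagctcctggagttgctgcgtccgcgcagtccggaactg

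Across the 12 libraries, each member's highest level was 1.64 times its lowest (Wee1) to 3.22 times (Cdc6), with a median of 2.47. The vehicle libraries were close together, while regorafenib and combination libraries were spread widely. Regorafenib 1 was above the whole vehicle range in 36 of 40 members, where 37.2% of all genes were, and regorafenib 2 and regorafenib 3 were below it in 38 and 35, against 37.7% and 36.1% of all genes. Combination 1 was below the vehicle range in 38 members (39.6% of all genes) and lowest of all libraries in 17, whereas combination 2 and combination 3 were below it in 22 and 18 (38.7% and 35.1% of all genes). The anti-PD1 libraries were below it in 38, 29 and 34 members, against 35.9%, 28.3% and 32.3% of all genes.

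**Figure D1:**
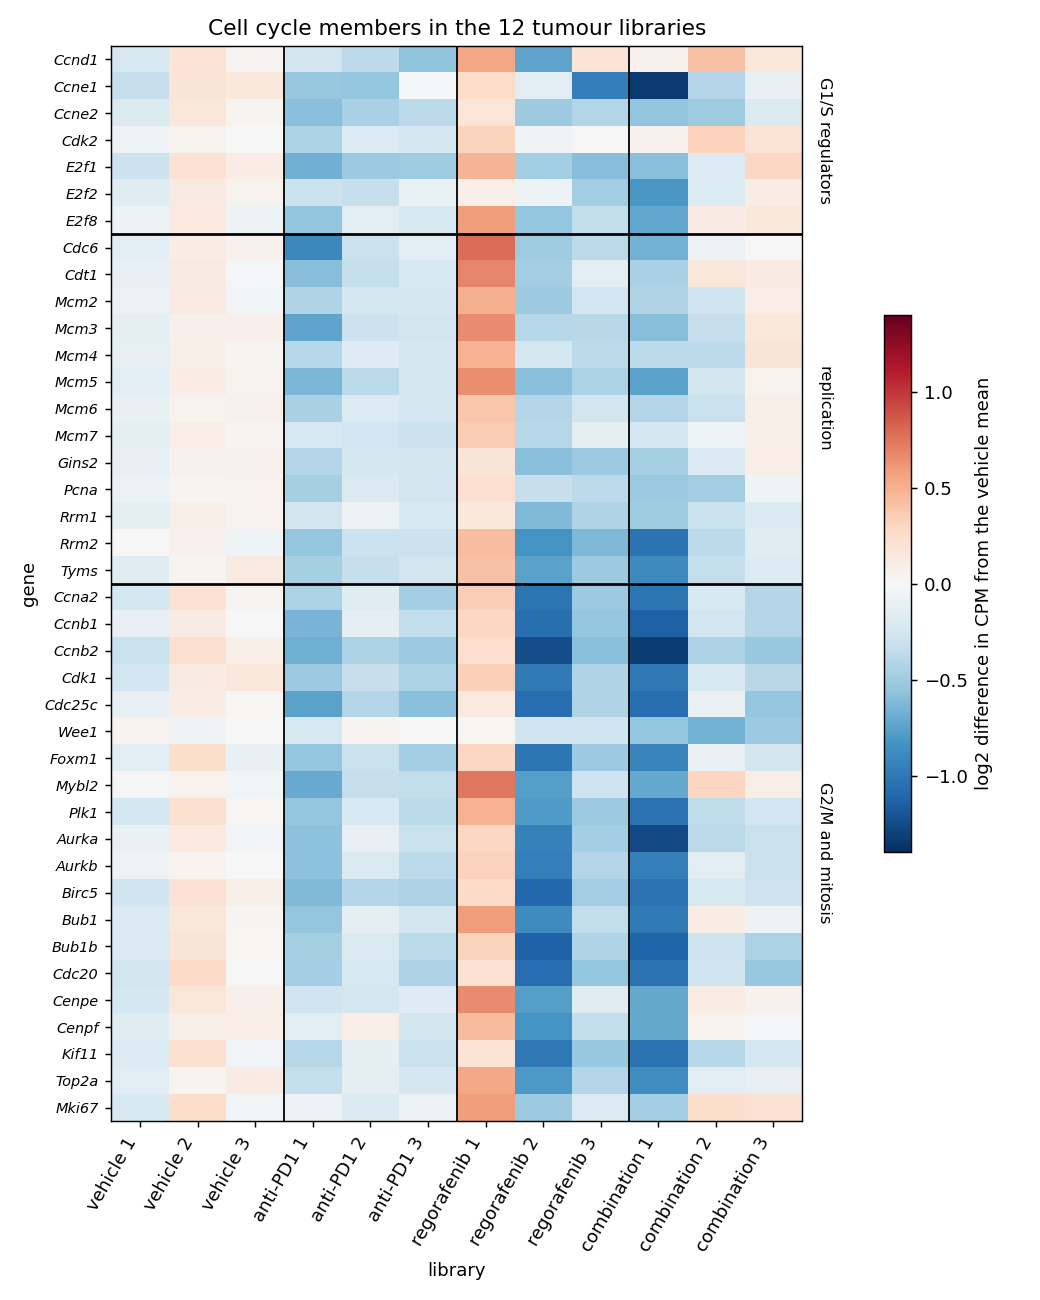
Log2 difference in CPM of each member (rows, by role) from its vehicle mean, in each of the 12 libraries (columns); red is higher and blue lower. Regorafenib 1 is higher in most rows, regorafenib 2 and combination 1 are the lowest columns in the mitosis block, and the anti-PD1 columns are lower in most rows.

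The mean log2 difference from vehicle over the members of a role put these libraries on one scale. For mitosis genes it was 0.37, -0.91 and -0.42 in the 3 regorafenib libraries, -0.95, -0.17 and -0.26 in the combination libraries, and -0.48, -0.21 and -0.34 in the anti-PD1 libraries, against -0.17, 0.15 and 0.02 with vehicle. For replication genes it was 0.45, -0.51 and -0.37 with regorafenib, -0.56, -0.25 and 0.02 with the combination, and -0.50, -0.26 and -0.24 with anti-PD1. The roles thus moved together in most libraries. Mitosis genes stood below replication genes by 0.40 in regorafenib 2, 0.39 in combination 1 and 0.28 in combination 3, and the other libraries had differences of -0.10 to 0.08. G1/S regulators were at 0.35, -0.36 and -0.37 with regorafenib and at -0.55, -0.06 and 0.08 with the combination.

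**Figure D2:**
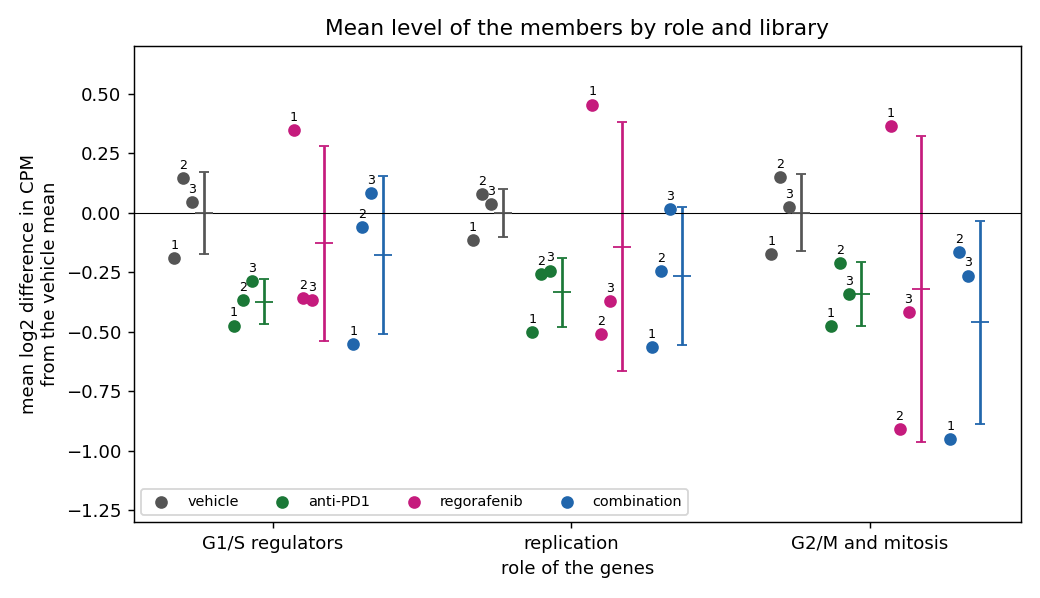
Mean log2 difference in CPM from the vehicle mean over the members of each role (vertical axis), one numbered point per library and colour per group, with the group mean and SD beside the points. The anti-PD1 points lie below all vehicle points in each role, and the regorafenib points straddle them.

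Within groups, the members' spread was far from even. The median SD of log2 CPM over the 3 libraries was 0.14 with vehicle and 0.14 with anti-PD1, 0.62 with regorafenib and 0.42 in the combination. Over all genes tested the same medians were 0.12, 0.19, 0.25 and 0.21. All 40 members had a larger SD with regorafenib than with vehicle, as did 79.3% of all genes, and 39 had a larger SD with the combination (Ccnd1 did not), as did 72.2% of all genes. Wee1 and Cdk2 had the smallest SDs of the members with regorafenib, 0.18 and 0.20.

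**Figure D3:**
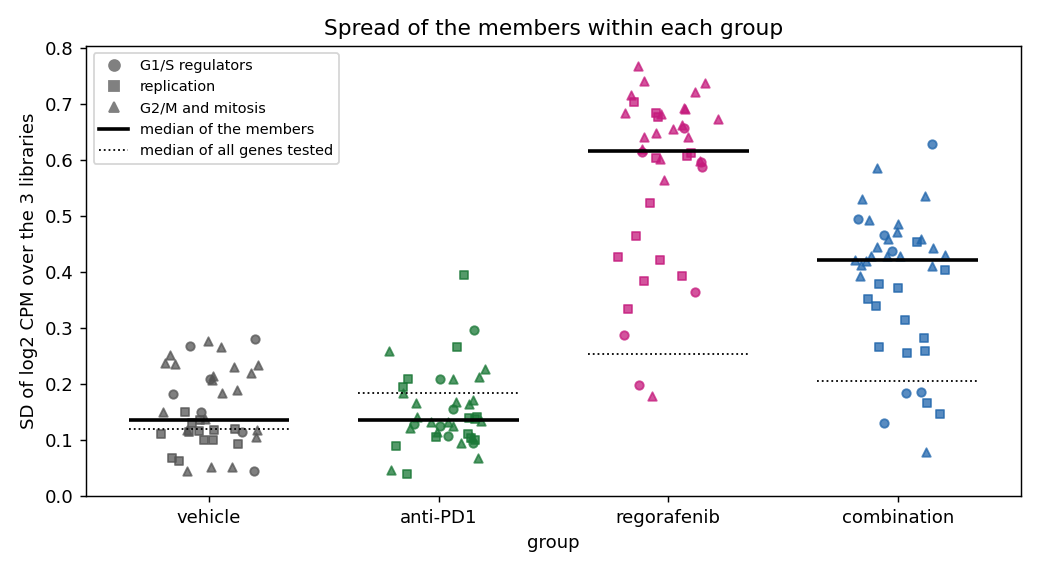
SD of log2 CPM over the 3 libraries of each group (vertical axis), one point per member with its role as the symbol. Solid lines are the medians of the members (0.14, 0.14, 0.62 and 0.42) and dotted lines those of all genes tested.

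The regorafenib effect was averaged over both backgrounds (regorafenib against vehicle, and the combination against anti-PD1). This average passed the threshold as higher for Cdk2, as lower for Wee1 and for no other member. Against vehicle, Cdk2 passed neither with regorafenib alone nor in the combination. In edgeR's quasi-likelihood test, 1 of 40 members rose (2.5%) and 1 fell (2.5%) at an adjusted p under 0.05, where 6.16% of all genes rose and 3.32% fell. With 40 members these counts are too few to set the members apart from all genes, and the difference was not tested. Their median log2 fold change was -0.10, with 15 above and 25 below 0, and the median of all genes was 0.00. By role the medians were 0.09 for G1/S regulators, 0.04 for replication and -0.16 for mitosis, and no test of the difference between roles was made. The median of all members ran from -0.30 without regorafenib 1 to -0.01 without regorafenib 2, and was -0.04, -0.02 and -0.17 without regorafenib 3, combination 1 and combination 3. Without regorafenib 1 the G1/S and replication medians were -0.12 and -0.14, and the replication median was also below 0 without combination 3 (-0.05). They reached 0.21 without combination 1 and 0.12 without regorafenib 2, respectively. The mitosis median was below 0 in each fit that left out 1 library, from -0.38 without regorafenib 1 to -0.03 without regorafenib 2, with -0.05 without combination 1.

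Wee1 (chromosome 7, 110122046 to 110143286, plus strand, GRCm38) encodes the kinase that holds CDK1 inactive until mitosis. Its levels were 70.1, 65.3 and 67.7 CPM with vehicle, 57.9, 69.4 and 67.5 with anti-PD1, 69.1, 55.9 and 55.6 with regorafenib, and 46.4, 42.9 and 47.6 with the combination. The 3 combination libraries were below all 9 others, and the other groups overlapped. Over all genes, the combination libraries were all below those of vehicle in 19.6%, of anti-PD1 in 9.09% and of regorafenib in 2.83%. Wee1 fell by 0.34 ± 0.07 (SE) on the log2 scale in the average regorafenib effect, which edgeR gave an adjusted p of 0.0195. It was 0.57 ± 0.10 lower in the combination than with vehicle (log2 fold change -0.57, adjusted p = 0.0178) and 0.51 ± 0.10 lower than with anti-PD1 (log2 fold change -0.51, adjusted p = 0.0341). These comparisons share the combination libraries and are not independent. Regorafenib alone gave a log2 fold change of -0.17 ± 0.10 (adjusted p = 0.464), and the combination against regorafenib gave -0.40 ± 0.10 (adjusted p = 0.856).

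The sign of the Wee1 difference held in each fit that left out 1 library, at log2 fold changes of -0.40 to -0.31 for the average effect, but the call did not. For the average effect it was lost without vehicle 1, vehicle 3, anti-PD1 2 or combination 2, with adjusted p-values up to 0.0578. Against vehicle it was lost without any 1 vehicle library, combination 1 or combination 2 (up to 0.0896). Against anti-PD1 it was lost when combination 1, combination 2, anti-PD1 2, anti-PD1 3 or any vehicle library was left out (up to 0.178). Markers of several cell types moved with regorafenib too. In the average effect, 3 of 10 endothelial markers were called lower (median log2 fold change -0.33). So was 1 of 10 fibroblast markers (median -0.77). Called higher were 2 of 8 neutrophil markers (median 1.33, with all 8 above 0) and 1 of 7 natural killer cell markers, Prf1 (median of the list 0.51). Of 10 T cell markers, 0 were called (median 0.45, with all 10 above 0). Of 10 keratinocyte markers (median -0.07), only Krt14 was called, as lower (edgeR, log2 fold change -0.52, adjusted p = 0.0303). Over all genes, 3.32% were called lower and 6.16% higher, and no list was tested against these shares. Summed endothelial markers were 116 to 133 CPM with vehicle and 72.0 to 128 in the combination, and summed neutrophil markers 12.8 to 21.9 and 35.04 to 58.1 CPM. Summed keratinocyte markers were 14890 to 17730 CPM with vehicle, 12070 to 14340 with regorafenib and 11600 to 13770 with the combination. The part of these cells in the Wee1 and Cdk2 results was not tested.

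Cdk2 (chromosome 10, 128697939 to 128705031, minus strand) was measured at 47.2, 50.2 and 48.7 CPM with vehicle, 35.9, 42.5 and 41.0 with anti-PD1, 60.6, 46.9 and 48.8 with regorafenib, and 50.9, 61.1 and 55.4 with the combination. Its combination libraries were above all vehicle and all anti-PD1 libraries, and its anti-PD1 libraries were below all the rest. Over all genes, the combination libraries were all above those of vehicle in 19.6% and of anti-PD1 in 13.0%. The anti-PD1 libraries were all below those of vehicle in 9.08%. Cdk2 rose by 0.29 ± 0.08 on the log2 scale in the average regorafenib effect (edgeR, adjusted p = 0.0415). The call was lost in 9 of 12 fits that left out 1 library (adjusted p 0.0565 to 0.100 in those 9) and was kept without regorafenib 2, regorafenib 3 or combination 1. The combination against anti-PD1 gave 0.49 ± 0.11, just short of the threshold (adjusted p = 0.0517). Estimates against vehicle were smaller: 0.10 ± 0.11 for regorafenib alone and 0.20 ± 0.11 for the combination (edgeR, adjusted p 0.715 and 0.264). The former ran from -0.025 to 0.182 in fits that left out 1 library, and was below 0 without regorafenib 1. The latter was called in 0 of 12 such fits. The average effect thus came mostly from the comparison with anti-PD1, whose libraries were lowest. Cdk2 shares 34 of its 6219 exonic bases with Pmel on the other strand, and Wee1 shares none with another gene.

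Ccnd1 had the largest difference of the G1/S regulators and did not pass. Its levels were 256, 342 and 307 CPM with vehicle, 251, 232 and 203 with anti-PD1, 435, 180 and 342 with regorafenib, and 311, 399 and 333 with the combination. Regorafenib 1 and regorafenib 2 were the highest and the lowest of the 12 libraries. Its average regorafenib effect was 0.34 ± 0.18 on the log2 scale (edgeR, adjusted p = 0.249), and it passed as higher when regorafenib 2 was left out. Of its 4709 exonic bases, 1100 are shared with LTO1 on the other strand, and the strand setting of the counting is not given in the sources used here. E2f1, E2f2 and E2f8, factors of the E2F family, had average effects of 0.16, -0.08 and 0.09.

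**Figure D4:**
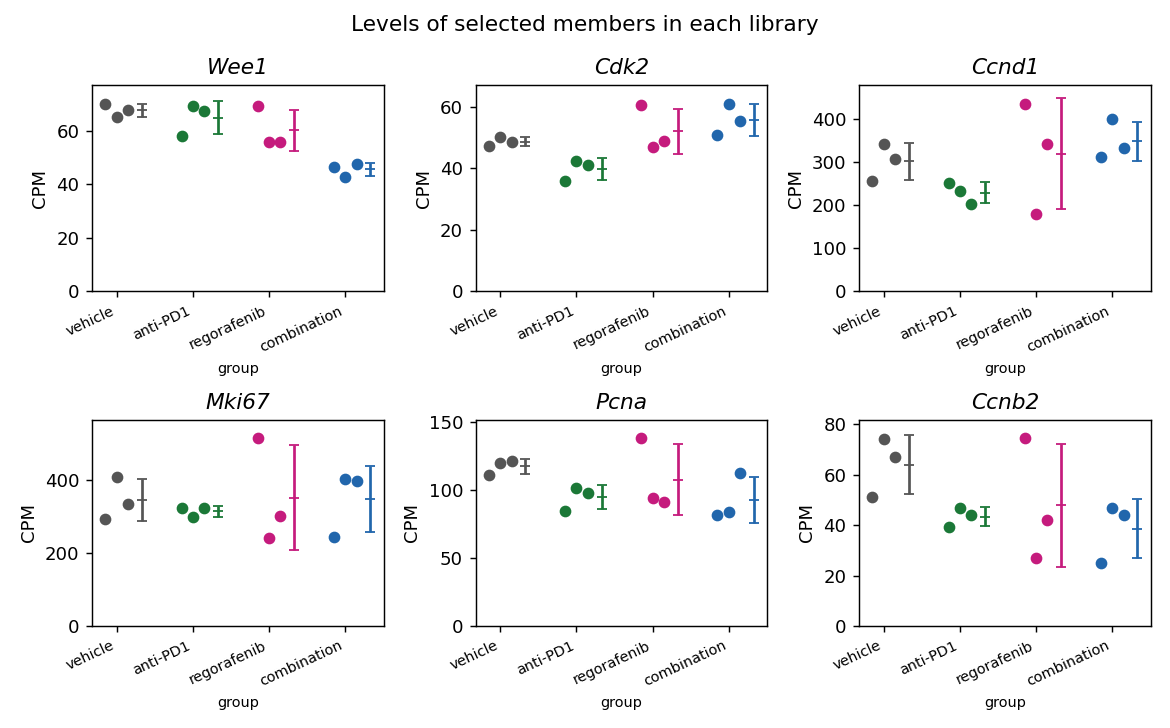
Levels in CPM (vertical axis, from 0) of 6 members in each library, by group, with the group mean and SD beside the points. The Wee1 combination points (42.9 to 47.6 CPM) lie below all others, and the Cdk2 anti-PD1 points (35.9 to 42.5 CPM) lie below all others.

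In the replication list, Rrm1, the large subunit of ribonucleotide reductase, came nearest to the threshold. Its levels were 202, 234 and 230 CPM with vehicle, 185, 211 and 189 with anti-PD1, 245, 145 and 166 with regorafenib, and 157, 179 and 192 with the combination. All its combination libraries were below all vehicle libraries, as in 19.6% of all genes. The average regorafenib effect on Rrm1 was -0.20 ± 0.12 (edgeR, adjusted p = 0.295), and it passed as lower without regorafenib 1. Cdt1, the licensing factor that loads the helicase with Cdc6, had the largest estimate of the list at 0.21 ± 0.19 (adjusted p = 0.499). Cdt1 stood at 68.5, 80.6 and 73.2 CPM with vehicle, 49.1, 58.9 and 63.9 with anti-PD1, 118, 52.6 and 66.0 with regorafenib and 54.1, 82.4 and 80.2 with the combination. The 6 helicase subunits were between 0.02 (Mcm6) and 0.12 (Mcm3), each smaller than its SE. Rrm2 and Tyms, which supply nucleotides with Rrm1, were at -0.17 and -0.15.

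Of the 20 mitosis genes, 17 had a negative average regorafenib effect and only Wee1 passed. The next in size were Kif11, the motor that separates spindle poles, at -0.31 ± 0.20, Cdc20 at -0.30 ± 0.21 and Ccnb2, cyclin B2, at -0.29 ± 0.24 (edgeR, adjusted p 0.338 to 0.451). Bub1b, Aurka and Ccnb1 were between -0.28 and -0.26. The 3 with positive estimates were Mybl2 (the gene of B-MYB) at 0.22, the proliferation marker Mki67 at 0.09 and Cenpe, a kinetochore motor, at 0.06. Mki67 itself was at 295, 409 and 334 CPM with vehicle, 323, 298 and 324 with anti-PD1, 515, 241 and 301 with regorafenib, and 245, 405 and 397 with the combination. Its groups overlapped throughout, with regorafenib 1 highest and regorafenib 2 lowest.

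With regorafenib alone against vehicle, no member passed in edgeR, where 1 gene in all did (0.00589% of those tested). None of the members had an unadjusted p under 0.05 in edgeR and none passed in DESeq2. Their median log2 fold change was -0.16, but it was 0.03 without regorafenib 2, -0.01 without regorafenib 3, -0.10 without vehicle 2 and -0.54 without regorafenib 1. No member's regorafenib libraries lay all below the vehicle libraries, against 10.2% of all genes. The smallest p belonged to Wee1, given above.

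Anti-PD1 gave lower estimates for every member, none of which passed. Against vehicle, all 40 log2 fold changes in edgeR's fit were negative, from -0.58 (E2f1) to -0.06 (Wee1), with a median of -0.36 where the median of all genes was 0.01. No gene in the table passed an adjusted p of 0.05 (0% of those tested). The members with an unadjusted p under 0.05 were Cdk2 and Ccne2, 2 of 40, against 878 of 16974 genes, and DESeq2 called 5 genes, none of them a member. The medians by role were -0.36 for G1/S regulators, -0.31 for replication and -0.37 for mitosis. Under each of the 18 alternatives run, leave-one-out fits included, the median of all members was between -0.41 and -0.27. Other markers moved in the same libraries. Mitochondrially encoded genes were lower for all 7 of 13 that were tested, 2 of them at an unadjusted p under 0.05, and their summed levels were 11330 to 12460 CPM with anti-PD1 and 12590 to 13970 with vehicle. All 10 T cell markers had positive estimates (median 0.68), with summed levels of 92.6 to 235 CPM against 86.6 to 106, and summed keratinocyte markers were 11900 to 15250 CPM against 14890 to 17730. None of these markers passed the adjustment, and their part in the members' values was not tested.

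The small spread of the members in these 2 groups can be seen in the libraries themselves. In 26 of 40 members (65%) all 3 anti-PD1 libraries were below all 3 vehicle libraries, against 9.08% of all genes. They were 5 of 7 G1/S regulators, 11 of 13 replication genes and 10 of 20 mitosis genes, and none lay all above. When only these 6 libraries were fitted, so that the wider spread of the regorafenib groups did not enter, 30 of 40 members were lower at an unadjusted p under 0.05, against 5.05% of all genes. None passed the adjustment there (smallest adjusted p 0.466, Cdc25c). The members varied in common across libraries, so these counts are not of independent genes.

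Several members show the pattern. Pcna was at 111, 120 and 121 CPM with vehicle and 84.6, 102 and 97.8 with anti-PD1 (log2 fold change -0.31 ± 0.17), and it was at 138, 93.9 and 90.7 with regorafenib and 81.4, 83.8 and 112 with the combination. Its anti-PD1 libraries were below all vehicle libraries. A processed pseudogene, Pcna-ps2, held 7017 counts over all libraries where Pcna held 31575, and reads could be split between them. E2f1, whose product activates replication genes, was at 19.8, 28.1 and 26.3 CPM with vehicle, 15.4, 17.1 and 17.3 with anti-PD1, 34.0, 17.6 and 16.1 with regorafenib and 16.3, 21.5 and 29.9 with the combination (anti-PD1 against vehicle -0.58 ± 0.29). Ccne2, cyclin E2, was at 17.1, 21.95 and 20.1 CPM with vehicle, 13.1, 14.3 and 15.2 with anti-PD1, 22.1, 13.8 and 14.8 with regorafenib, and 13.4, 13.9 and 17.0 with the combination (anti-PD1 against vehicle -0.47 ± 0.18). Both genes' anti-PD1 libraries were below all vehicle libraries, as were the combination libraries of Ccne2, while their other groups overlapped with vehicle. Over all genes, the combination libraries were all below those of vehicle in 19.6%.

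Cdc25c, the phosphatase that reverses WEE1 on CDK1, was at 17.1, 19.8 and 18.7 CPM with vehicle, 11.0, 14.0 and 12.4 with anti-PD1, 20.3, 8.84 and 13.8 with regorafenib, and 8.84, 17.4 and 12.7 with the combination. Its vehicle and anti-PD1 libraries did not overlap (log2 fold change -0.57 ± 0.29). Gins2, a subunit of the replication fork helicase complex, was at 28.3, 31.9 and 32.0 CPM with vehicle, 23.1, 25.8 and 25.6 with anti-PD1, 34.8, 20.5 and 21.5 with regorafenib and 22.1, 26.7 and 32.8 with the combination. Of its 4097 exonic bases, 2758 lie over Gse1 on the other strand, so its counts are uncertain. Cdc6 was at 12.6, 15.1 and 14.6 CPM with vehicle and 7.51, 11.3 and 12.7 with anti-PD1, and the highest anti-PD1 value was just above the lowest vehicle value. With regorafenib Cdc6 was at 24.2, 9.94 and 10.8 CPM and with the combination at 8.93, 13.3 and 14.0 CPM.

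Averaged over both backgrounds, the anti-PD1 effect was also negative for all 40 members, with a median of -0.26 (-0.08 without regorafenib 1), and edgeR called none of them and no gene in all (0%). Unadjusted p-values under 0.05 were given for Wee1 (-0.23 ± 0.07) and Ccne2 (-0.33 ± 0.13), 2 of 40, against 1485 of 16974 genes, and DESeq2 called 11 genes, none of them a member. The largest estimates by role were Ccnb2 at -0.43 ± 0.24, Cdc6 at -0.37 ± 0.23 and Ccne1 at -0.34 ± 0.25. Ccnb2 was at 51.1, 74.1 and 67.0 CPM with vehicle, 39.4, 46.7 and 44.0 with anti-PD1, 74.4, 26.8 and 42.2 with regorafenib, and 25.1, 46.9 and 43.9 with the combination. All Ccnb2 libraries of both anti-PD1 groups were below all vehicle libraries. Taken singly, this held in 9.08% of all genes for anti-PD1 and in 19.6% for the combination. Ccne1 was at 5.62, 7.97 and 7.83 CPM with vehicle, 4.88, 4.84 and 6.97 with anti-PD1, 8.46, 6.33 and 3.62 with regorafenib and 2.78, 5.29 and 6.52 with the combination, with overlap between all groups.

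**Figure D5:**
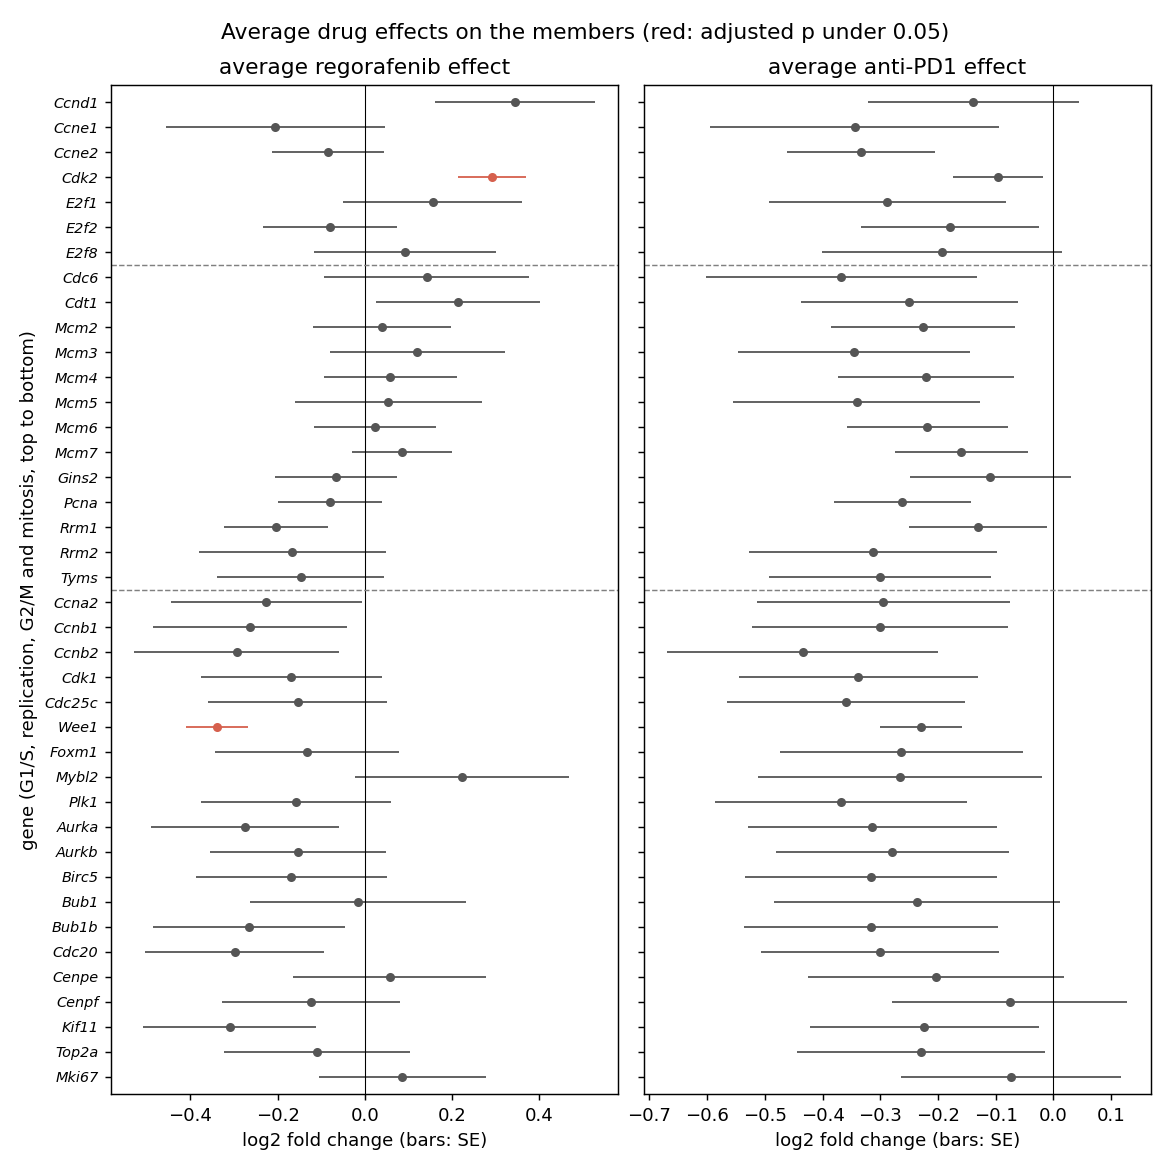
Log2 fold change of each member with its SE (horizontal axes), by role from top to bottom, for the average regorafenib effect (left) and the average anti-PD1 effect (right); the axes differ in range. Red marks an adjusted p under 0.05 in edgeR, which is Cdk2 and Wee1 on the left and none on the right, where all 40 points are below 0.

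The combination against vehicle gave a single call among the members. In edgeR Wee1 fell (1 of 40, 2.5%) and none rose, where 2.32% of all genes fell and 5.03% rose. The members' median log2 fold change was -0.34, with 37 of 40 below 0, and the median of all genes was 0.02. The role medians were -0.13 for G1/S regulators, -0.23 for replication and -0.51 for mitosis. Mitosis genes ran from -0.73 ± 0.33 for Ccnb2 to 0.01 ± 0.27 for Mki67, and replication genes from -0.48 ± 0.30 for Rrm2 to -0.04 ± 0.27 for Cdt1. In 13 of 40 members all combination libraries were below all vehicle libraries, against 19.6% of all genes: Wee1, Aurka, Aurkb, Bub1b, Ccnb1, Ccnb2, Cdc20, Kif11 and Plk1 in mitosis, Rrm1, Rrm2 and Tyms in replication, and Ccne2. Without combination 1, the lowest library, the members' median was -0.16 and the role medians were 0.05, -0.09 and -0.31 in the same order. Without combination 3 the G1/S and replication medians were -0.39 and -0.37, and the G1/S median was also -0.27 without vehicle 1, -0.04 without vehicle 2 and -0.23 without combination 2.

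Against anti-PD1, the combination lowered Wee1 and raised no member past the threshold. Wee1 was 1 of 40 called lower, where edgeR called 0.224% of all genes lower and 1.7% higher. The median of the members was 0.03, with 21 above and 19 below 0, and it was below 0 without anti-PD1 1 (-0.04), combination 2 (-0.14) or combination 3 (-0.09) and 0.19 without combination 1. Cdk2 and Ccnd1 had the largest positive estimates, 0.49 ± 0.11 and 0.61 ± 0.26 (edgeR, adjusted p 0.0517 and 0.236). G1/S regulators had a median of 0.20, replication genes 0.11 and mitosis genes -0.10. In the fits that left out 1 library the G1/S median ran from 0.05 without combination 3 to 0.43 without combination 1, the replication median from -0.07 to 0.21 and the mitosis median from -0.24 without combination 2 to 0.10 without combination 1, with the ends of the replication range from the same libraries as those of the G1/S range. For the combination against regorafenib, edgeR called no member and no gene at all (0%). Wee1 alone of the members had an unadjusted p under 0.05 in edgeR, against 925 of 16974 genes, and DESeq2 called 4 genes and no member. The median there was -0.17, but it was 0.22 without regorafenib 1, -0.03 without combination 1, and -0.29 to -0.42 without regorafenib 2, regorafenib 3, combination 2 or combination 3. The comparisons against vehicle and those between treatments share libraries, and the values are given side by side only.

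The interaction asks whether the regorafenib effect differed in the presence of anti-PD1. No member and no gene passed in edgeR (0%), and DESeq2 called none. Unadjusted p-values under 0.05 belonged to Cdk2 (0.39 ± 0.16) and Wee1 (-0.34 ± 0.14), 2 of 40, against 449 of 16974 genes, and both had an adjusted p of 0.9998 in edgeR. The estimate was positive for 39 of 40 members, with a median of 0.15. That median was -0.06 without regorafenib 2 and 0.57 without regorafenib 1, and it moved by over 1.5 times, with its sign kept, without vehicle 2, anti-PD1 1, regorafenib 3 or any 1 combination library. E2f1 at 0.58 ± 0.41, Gins2 at 0.39 ± 0.28 and Cdc25c at 0.43 ± 0.41 were the largest in their roles.

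Other genes of the pathway were read from 6 lists chosen by function. Among 11 inhibitors of cyclin-dependent kinases and pocket proteins, all tested, 0 rose in the average regorafenib effect, against 6.16% of all genes. In that effect 1 of the 11 fell (9.09%), against 3.32% of all genes, a difference that was not tested. It was Cdkn2b, which encodes the CDK4/6 inhibitor p15, at 2.56, 2.55 and 2.55 CPM with vehicle, 1.15, 2.65 and 2.05 with anti-PD1, 1.06, 1.89 and 0.78 with regorafenib, and 0.84, 0.38 and 0.72 with the combination. All 6 libraries with regorafenib were below all vehicle libraries. Over all genes, the regorafenib libraries were all below the vehicle libraries in 10.2%, and the combination libraries in 19.6%. Cdkn2b fell by 1.32 ± 0.29 on the log2 scale in the average regorafenib effect (edgeR, adjusted p = 0.0223) and by 1.98 ± 0.42 in the combination against vehicle (adjusted p = 0.0262). Either call was lost without any 1 vehicle library or combination 2, the first also without anti-PD1 2 and the second without combination 1, and both were lost with the replicate number as a block. Summed fibroblast markers were 4890 to 12890 CPM in the combination libraries, 6541 in anti-PD1 1, 11400 in regorafenib 1 and 5689 in regorafenib 3. In regorafenib 2, anti-PD1 2, anti-PD1 3 and the vehicle libraries they were 24460 to 32660 CPM. The part of fibroblasts in the Cdkn2b values was not tested. The list's median was -0.25 in the average effect.

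Of 13 other G1 cyclins, kinases and E2F factors, 41 other replication genes and 44 other mitosis genes, none passed in the average regorafenib effect. Their smallest adjusted p-values in edgeR were 0.058 for E2f5 (log2 fold change 0.34), 0.0603 for Gins4 (-0.20) and 0.126 in the mitosis list. In the combination against vehicle, 1 of the 44 mitosis genes fell (2.27%, near the 2.32% of all genes) and 0 rose: Bub3, a spindle checkpoint protein, at 109.8, 129.6 and 122 CPM with vehicle and 91.7, 88.5 and 104 CPM with the combination (edgeR, log2 fold change -0.35, adjusted p = 0.0471). That list's median was -0.51, equal to that of the mitosis members to 2 decimals, and 43 of its 44 genes were below 0. The 41 replication genes had a median of -0.16 there, with 35 below 0. Against vehicle, anti-PD1 gave negative estimates for 44 of 44 mitosis genes and 38 of 41 replication genes, with medians of -0.38 and -0.28, and none passed.

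Of 18 genes of the DNA damage checkpoint and repair, 1 rose in the average regorafenib effect, a share (5.56%) near the 6.16% of all genes. This was Atr, the kinase that answers stalled replication forks, at 47.0 ± 1.27 CPM with vehicle, 49.4 ± 5.78 with anti-PD1, 56.0 ± 7.69 with regorafenib and 65.5 ± 7.86 in the combination (SD, n = 3). Its average effect was 0.33 ± 0.09 (edgeR, adjusted p = 0.0409). Of 16 p53 targets, 1 rose (6.25%, again near the share of all genes) and 0 fell: Mdm2, the ubiquitin ligase of p53, at 57.1 ± 2.90, 58.3 ± 7.66, 65.6 ± 5.98 and 83.7 ± 14.1 CPM in the same order, with an average effect of 0.36 ± 0.09 (adjusted p = 0.0394). Both genes also rose in the combination against vehicle (adjusted p 0.0433 and 0.0361). The calls for Atr and Mdm2 in the average effect were each kept in 3 of 12 fits that left out 1 library, with adjusted p-values up to 0.114 and 0.107, and that for Bub3 against vehicle in 5 of 12 (up to 0.164). In the combination against vehicle the Atr call was kept in 4 of 12 such fits and the Mdm2 call in 6 of 12 (up to 0.172 and 0.157). With the replicate number as a block all of these calls were lost, the Atr calls were also lost with no filter on low counts, and the Bub3 call was lost with no filter, library totals only or only the 6 libraries compared. The Atr and Mdm2 calls in the average effect were kept without anti-PD1 1, regorafenib 2 or combination 3.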

How the data were processed

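RNA from 12 tumour samples was measured, 3 in each of 4 groups given by the sample titles. The authors deposited 1 table of raw counts by Ensembl gene identifier, all 12 columns of which were used. Per the submitters' processing notes, reads were processed with cutadapt 2.4 and STAR 2.7.2a on GRCm38, and per the labels' protocols the libraries were stranded and made from polyadenylated RNA. How reads were counted, with which strand setting and annotation, is not given in the sources used here, so reads of overlapping genes may be shared. GENCODE M21 gave symbols, positions and exon lengths (55141 identifiers matched, 54349 of them with the version). RefSeq gave the promoter windows, of which the first listed was used for the 2 members with more than 1.

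Genes were tested with edgeR 4.0.16 in R 4.3.3: filterByExpr (minimum count 10, minimum total count 15), TMM factors, 1 robust quasi-likelihood fit of 4 group means (common biological coefficient of variation 0.227 and 8 residual degrees of freedom) and two-sided F tests over 8 comparisons, each adjusted by Benjamini-Hochberg over 16974 genes at a threshold of 0.05. SEs are the log2 fold change divided by the square root of F. Log2 CPM used a prior count of 2. The procedure was tested on simulated data for the average regorafenib effect with 50 genes changed at each fold, where it recovered 44%, 60%, 76% and 90% of the changes of 1.5, 2, 3 and 5-fold, with 13 false calls.

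The members, roles and lists were chosen with earlier results of these data known. Values in every library are given for the member with the smallest p and that with the largest log2 fold change of each role in the average effects and the interaction, for members past the threshold, and for Mki67, Pcna and Ccnd1. Of each pathway list, called genes of smallest p are named, or the gene nearest to the threshold. Alternatives were DESeq2 1.42.0, RLE size factors, library totals, no filter, replicate number as a block, only the 6 libraries compared, an additive model and each library left out in turn. No pair of libraries of a group agreed within counting noise. Replicate numbers were not taken as pairs. Same-numbered libraries correlated at -0.66 to 0.63 in their deviations from group means (median -0.05). Differently numbered libraries of different groups correlated at -0.50 to 0.53 (median 0.09). Whether same-numbered libraries share a batch was not tested.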

Additional observations from a re-analysis of the deposited data

How the results depend on the processing

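In the average regorafenib effect, the 2 members called became 1 (Wee1) without a filter on low counts or with an additive model, and 0 to 3 when a library was left out. In the combination against vehicle, the 1 member called became 0 or 1 when a library was left out. In the combination against anti-PD1, the 1 member called became 2 (Cdk2 and Wee1) with library totals only or with DESeq2, 0 with only the 6 libraries compared, and 0 to 2 when a library was left out. With the replicate number as a block, 0 members were called in each of these 3 comparisons. No library correlated best with those of its own number (0 of 12), and the numbers were not taken as pairs. The other 5 comparisons had 0 members called under each alternative run.

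Counts over all genes moved more. The 1610 genes called in the average regorafenib effect became 959 without a filter, 504 with the block, 2808 with DESeq2 and 460 to 2048 when a library was left out. The 1246 genes of the combination against vehicle became 663, 11 and 2614 in the same order, 2068 with only 6 libraries and 1 to 1517 with a library left out, where the loss of over 1.5 times came without any 1 vehicle library, combination 1 or combination 2. The 326 genes of the combination against anti-PD1 became 0 with the block or only 6 libraries, 1202 with DESeq2 and 0 to 432 with a library left out (0 without anti-PD1 2, anti-PD1 3 or combination 2). For regorafenib against vehicle, the 1 gene became 6 without a filter, 425 with DESeq2 and 0 to 4 with a library left out, and 0 with the block or only 6 libraries. The combination against regorafenib went from 0 to 1 gene with only 6 libraries. The cause of these shifts was not tested. Where a library was left out, the 2 left were assumed to vary like the other groups. Changes of 1.5-fold, larger than any member's estimate in the average regorafenib effect, were recovered in 44% of cases in the test on simulated data, so an uncalled member is not shown to be unchanged.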

Other observations

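Wee1, the member with the smallest p in most comparisons, is also known as a target of the circadian clock, and 12 clock genes were read after its values had been seen, with no test. Per2, a repressor of the clock, averaged 15.02 ± 3.59 CPM with vehicle, 21.8 ± 1.12 after anti-PD1, 27.2 ± 5.17 after regorafenib and 37.9 ± 9.21 after both (SD, n = 3). Cry2, its partner, averaged 20.7 ± 0.91, 24.8 ± 1.13, 27.9 ± 4.14 and 39.97 ± 5.93 CPM in the same order. The 3 combination libraries of Cry2 (35.5 to 46.7 CPM) were above all 9 others. Over all genes, the combination libraries were all above the vehicle libraries in 19.6%, the anti-PD1 libraries in 13.0% and the regorafenib libraries in 4.94%. Dbp, a clock output factor, averaged 39.1 ± 17.7, 48.3 ± 5.08, 54.1 ± 11.6 and 76.0 ± 16.4 CPM. Arntl, which encodes the activator BMAL1, averaged 36.9 ± 3.84, 30.01 ± 4.27, 27.0 ± 4.34 and 30.1 ± 5.65 CPM. Per1 was mixed, at 82.5, 101 and 190 CPM in the combination libraries and 174 to 213 CPM with vehicle. Clock itself averaged 133.7, 135, 115 and 119 CPM and Nr1d2 105.5, 116, 102 and 117 CPM, with group SDs of 8.98 to 27.3 and 7.66 to 11.73 CPM. The 5 others were Per3 (19.0, 23.6, 24.1 and 37.4 CPM), Cry1 (5.32, 5.01, 6.41 and 6.70), Nr1d1 (197, 280.2, 265 and 320), Tef (207, 245, 208 and 275) and Ciart (9.01, 6.46, 11.1 and 14.5). The time of day at which the tumours were collected is not in the labels, and a link between these genes and Wee1 was not tested.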
